A study of Mus musculus with 4 samples.

Results

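The 40 genes described here mark 2 stages of cell division, and they were taken by name from a list that parts 18 genes of S phase, when DNA is copied, from 22 genes of G2 and mitosis (G2/M). All 40 were found among the 32285 genes of the expression matrices. They were followed in leukocytes of CT26 tumours, a mouse colon carcinoma grown in Balb/c mice aged 9 weeks. The comparison is of tumours after 8 days of liproxstatin-1, which blocks ferroptosis, a death of cells by oxidised membrane lipids, with control tumours. What the control mice received is not given in the sources used here. CD45+ cells, CD45 being a surface protein of leukocytes, were bead-selected and sequenced as single cells by a droplet method, with 2 libraries per group. Nothing in the labels says that replicates are separate animals, so p-values speak of the variation among libraries and possibly of technical variation alone.

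In a dividing cell, E2F transcription factors turn on the genes of DNA replication as the cell enters S phase. The G2/M genes follow later, when the MuvB complex with B-Myb and FoxM1 acts at their promoters. In resting cells a related complex, DREAM, keeps both sets low through the same promoter elements. Within tumours, macrophages as well as activated T cells can divide, whereas mature neutrophils do not.

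Promoters are shown for 4 members because the groups differ in the elements that E2F and MuvB read. The windows are RefSeq promoters of GRCm38.p6, 250 bases before to 50 after each start, and 34 of the 40 genes had at least one. Capitals mark CCAAT boxes (CCAAT) in all 4, the CHR element (TTTGAA) in Aurka and Plk1, and the E2F core (TTNNCGC, each N being C or G) in Rrm2 and Mcm3, on either strand.
Aurka, chr2:172370521-172370820, minus strand: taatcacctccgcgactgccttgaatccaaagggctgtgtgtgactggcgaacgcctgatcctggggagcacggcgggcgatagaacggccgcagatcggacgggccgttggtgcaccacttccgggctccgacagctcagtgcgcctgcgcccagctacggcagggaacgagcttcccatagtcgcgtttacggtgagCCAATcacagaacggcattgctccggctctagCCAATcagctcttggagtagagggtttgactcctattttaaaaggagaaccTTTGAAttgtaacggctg
Plk1, chr7:122159185-122159484, plus strand: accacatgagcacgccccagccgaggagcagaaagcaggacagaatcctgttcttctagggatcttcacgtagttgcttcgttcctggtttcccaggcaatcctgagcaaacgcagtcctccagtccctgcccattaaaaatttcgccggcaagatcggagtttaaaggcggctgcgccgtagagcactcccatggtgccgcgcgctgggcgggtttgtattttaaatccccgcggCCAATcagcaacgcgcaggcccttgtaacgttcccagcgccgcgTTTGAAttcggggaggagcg
Rrm2, chr12:24708004-24708303, plus strand: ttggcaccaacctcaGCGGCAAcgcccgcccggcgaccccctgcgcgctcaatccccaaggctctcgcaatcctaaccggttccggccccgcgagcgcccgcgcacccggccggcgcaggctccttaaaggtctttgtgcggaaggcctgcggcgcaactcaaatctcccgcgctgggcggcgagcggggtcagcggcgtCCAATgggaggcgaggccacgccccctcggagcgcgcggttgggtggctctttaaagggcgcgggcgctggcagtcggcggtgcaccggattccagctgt
Mcm3, chr1:20820263-20820562, minus strand: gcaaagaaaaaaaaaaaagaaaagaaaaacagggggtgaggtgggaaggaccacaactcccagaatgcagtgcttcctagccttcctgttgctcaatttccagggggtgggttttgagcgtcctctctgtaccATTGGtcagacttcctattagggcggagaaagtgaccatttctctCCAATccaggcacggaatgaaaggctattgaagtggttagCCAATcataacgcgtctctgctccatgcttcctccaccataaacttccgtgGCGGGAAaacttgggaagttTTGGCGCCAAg
Aurka and Plk1 encode mitotic kinases, Rrm2 the small subunit of ribonucleotide reductase and Mcm3 a subunit of the replicative helicase. By the RefSeq starts, the CHR lies 32 bases after the start in Aurka and 30 after it in Plk1. GENCODE places the start of Aurka elsewhere, at 172370535, so the distance in Aurka depends on the annotation. Among the windows of G2/M members 13 of 19 held TTTGAA, against 1 of 20 windows of S members and 17.9% of all 32851 windows. The E2F core stood in 4 of 19 G2/M and 13 of 20 S windows, against 9.57% of all. CCAAT was found in 15 of 19 G2/M and 11 of 20 S windows, with 37.4% of all windows. The variant TTTAAA was in 6 of 19 G2/M and 5 of 20 S windows and 13.2% of all. Those S windows belong to Ccne1, Mcm5, Rrm2, Tk1 and Uhrf1. Longer E2F forms were rarer: TTTGGCGC was in 0 G2/M and 3 S windows (0.514% of all) and TTTCCCGC in 0 and 4 (1.07%). A match describes letters, not binding.

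The libraries held 4138 to 9299 barcodes and 83129874 to 168597163 UMIs (unique molecular identifiers, each standing for 1 captured transcript). Pairs of libraries shared 4 to 22 barcodes. After filtering, 25622 cells were compared, of which 10.1% fell into no class. Cells were assigned by marker genes to 14948 mononuclear phagocytes (12298 macrophages, 1921 monocytes), 2897 CD8 T cells and smaller classes. All 10 macrophage markers were detected in at least 80.4% of phagocytes, and the 7 markers of epithelial or tumour cells each in at most 1.55% of them. Of the 10 monocyte markers 8 were detected in at least 10% of phagocytes, and 1 of 8 fibroblast markers was, in 10.2%. The same markers set the classes, so these shares describe the assignment and do not test it.

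Summed over all their cells, macrophages and T cells carried most of the members' UMIs, and monocytes, plasmacytoid dendritic cells and neutrophils few of them. G2/M members summed to 1271 and 1199 CPM (counts per 1000000 UMIs of the class) in macrophages of the liproxstatin libraries, against 1677 and 1647 CPM in control. In monocytes the same sum was 73.3 and 66.3 CPM with liproxstatin and 105 and 104 CPM in control. CD8 T cells had the highest G2/M level of the 11 classes tested, 1920 and 2138 CPM with liproxstatin and 2408 and 2221 CPM in control. Mast cells or basophils and NK cells, though few, came near macrophages in level. Their G2/M means over all libraries were 1530 and 1331 CPM, against 1449 CPM in macrophages. Neutrophils, which as mature cells do not divide, had 116 and 140 CPM with liproxstatin and 161 and 185 CPM in control. In neutrophils, too, the G2/M sum was lower in both liproxstatin libraries. The sum was lower still in plasmacytoid dendritic cells, 45.5 and 38.2 CPM with liproxstatin and 88.5 and 55.2 CPM in control. The level that free RNA leaves in a cell was not measured, and its part in the differences was not tested.

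**Figure D1:**
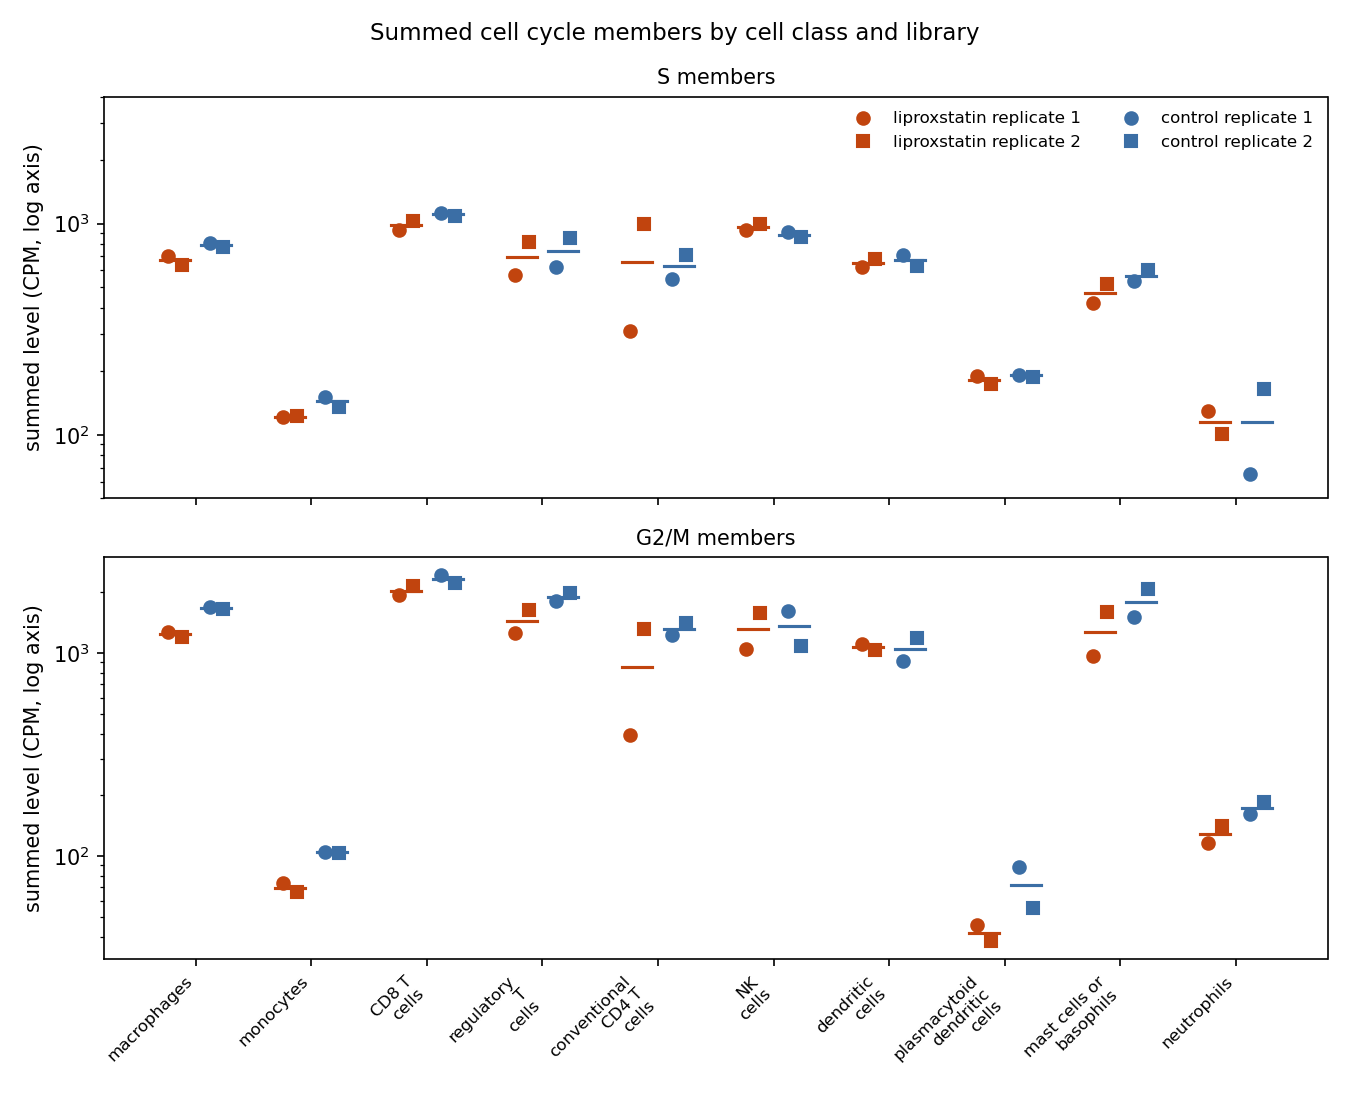
Summed level (CPM, log axis) of the 18 S members (top) and 22 G2/M members (bottom) in 10 cell classes; each point is a library and each bar a group mean. In macrophages the liproxstatin libraries lie below the control libraries for both sums, while in NK and dendritic cells the G2/M points overlap.

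In mononuclear phagocytes both phases were lower with liproxstatin, G2/M more than S. The summed G2/M level was 1135 and 1083 CPM in the liproxstatin libraries, against 1529 and 1532 CPM in control, a log2 difference of -0.47. The summed S level was 635 and 588 CPM with liproxstatin and 751 and 729 CPM in control, a log2 difference of -0.28. Neither sum overlapped between groups, but the exact two-sided permutation test gave p = 0.33 for both, the smallest that 2 against 2 libraries allow. G2/M UMIs per S UMI were 1.79 and 1.84 with liproxstatin and 2.03 and 2.1 in control phagocytes (exact permutation p = 0.33).

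Member by member, 15 of the 22 G2/M genes fell in phagocytes and 2 of the 18 S genes, Rrm2 and Tk1, and none rose (edgeR quasi-likelihood, adjusted p under 0.05 over 14669 genes). Of all genes tested 1.86% were called, 0.811% lower and 1.05% higher. All 40 members passed the filter on low counts. The median log2 fold change was -0.50 over the G2/M and -0.17 over the S members, while over all genes it was 0.00. All 22 G2/M members and 13 of 18 S members were lower in both liproxstatin libraries than in both control libraries, which held for 31.8% of all genes. Fewer G2/M members were called without liproxstatin replicate 1, when calls over all genes fell as well. Median UMIs per phagocyte were 23358.5 and 20876 with liproxstatin and 23646 and 28523 in control. With every cell thinned to 3000 UMIs, 12 G2/M and 3 S members were called, against 1.56% of the 11499 genes then tested.

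Among regulators of mitotic entry, Aurka, a kinase of the centrosome and spindle (chromosome 2, 172356190 to 172370535, minus strand), had 13.4 and 12.3 CPM in phagocytes of the liproxstatin libraries, against 19.9 and 21 CPM in control. Its fall, -0.62 ± 0.09 on the log2 scale (SE from edgeR, 2 libraries a group; adjusted p = 0.013), was the largest fall of the G2/M members. Plk1, a kinase that drives mitotic entry, had 16.5 and 15.4 CPM with liproxstatin and 24.6 and 25 CPM in control. The cyclins Ccna2, Ccnb1 and Ccnb2, which activate Cdk1, fell by 0.54, 0.55 and 0.53 on the log2 scale. Ccna2 had 26.2 and 25.2 CPM with liproxstatin and 37.3 and 39.9 CPM in control, and Ccnb1 had 21.6 and 20.7 CPM with liproxstatin and 31.7 and 32.3 CPM in control. Ccnb2 had 37.2 and 34.7 CPM with liproxstatin and 51.7 and 55.4 CPM in control. Cdk1, the mitotic kinase itself, had 56.5 and 61 CPM with liproxstatin and 85.3 and 86.3 CPM in control, and Cdkn3, a phosphatase that acts on Cdk1, fell by 0.50. In each of these genes the 2 groups were apart by more than the spread within either.

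The 8 other G2/M members that fell act on chromosomes, the spindle or mitotic exit or in mitotic signalling. Aurkb and Birc5, both of the chromosomal passenger complex, fell by 0.57 and 0.50. Aurkb had 23.5 and 22.9 CPM with liproxstatin and 35.4 and 35.8 CPM in control, and Birc5 had 87.9 and 91.5 CPM with liproxstatin and 129 and 134 CPM in control. Ube2c and Cdc20, which work with the anaphase-promoting complex, fell by 0.53 and 0.50, and Ube2c had 90.4 and 96.7 CPM with liproxstatin and 138 and 141 CPM in control. Pttg1, or securin, had 47 and 47.5 CPM with liproxstatin and 73.1 and 69.5 CPM in control. Nusap1, a spindle-microtubule protein, and Pbk, a mitotic kinase, fell by 0.59 and 0.55. Nusap1 had 33.8 and 29.3 CPM with liproxstatin and 48.9 CPM in both control libraries. Stmn1, a microtubule destabiliser and the G2/M member with most UMIs, had 201 and 209 CPM with liproxstatin and 295 and 279 CPM in control (log2 fold change -0.44 ± 0.09, edgeR adjusted p = 0.0357).

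The 7 other G2/M members did not pass the test, among them 2 widely used proliferation markers. Mki67, whose protein coats mitotic chromosomes, had 115 and 93.7 CPM with liproxstatin and 132 and 122 CPM in control (log2 -0.24 ± 0.10, edgeR adjusted p = 0.308). Top2a, a topoisomerase that untangles DNA, had 128 and 104 CPM with liproxstatin and 137 and 142 CPM in control (adjusted p = 0.31, edgeR). Liproxstatin replicate 1 was closer to the controls than replicate 2 in both genes. Cenpf, Cenpe, Hmmr, Knstrn and Prc1 had log2 fold changes between -0.31 and -0.15.

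**Figure D2:**
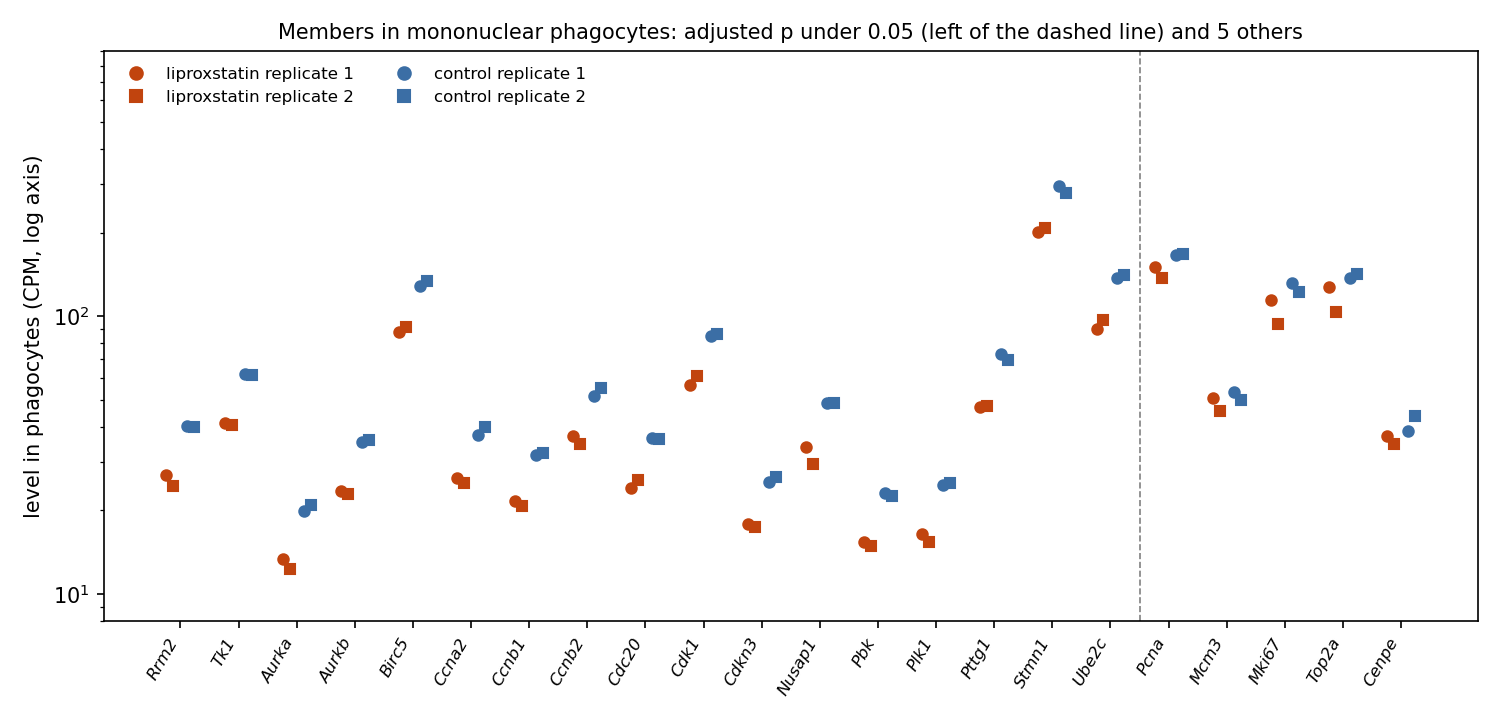
Level (CPM, log axis) in mononuclear phagocytes of the 17 members called lower (left of the dashed line) and 5 others; each point is 1 library. The groups are well apart left of the line, and closer for Mcm3, Mki67, Top2a and Cenpe.

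Of the S members, Rrm2 and Tk1, which serve deoxynucleotide supply, had the largest falls. Rrm2 had 26.9 and 24.5 CPM with liproxstatin and 40.3 and 40.1 CPM in control phagocytes (log2 fold change -0.60 ± 0.08, edgeR adjusted p = 0.013). Tk1, thymidine kinase, had 41.3 and 40.5 CPM with liproxstatin and 62.1 and 61.4 CPM in control (-0.55 ± 0.08, edgeR adjusted p = 0.0131). Tyms, thymidylate synthase, just missed the threshold (-0.40 ± 0.09, edgeR adjusted p = 0.0506), and Rrm1, the other ribonucleotide reductase subunit, had 42.3 and 38.6 CPM with liproxstatin and 49.7 and 50.4 CPM in control (log2 -0.26). Ccne2, a cyclin of S-phase entry, lay below both at -0.42 ± 0.14, with an edgeR adjusted p of 0.167. The helicase genes spread from Mcm7 at -0.34 to Mcm4 at 0.01. Mcm3 had 50.6 and 45.5 CPM with liproxstatin and 53.4 and 50.1 CPM in control, so its groups overlapped. Pcna, the polymerase clamp and the S member with most UMIs, had 151 and 138 CPM with liproxstatin and 166 and 168 CPM in control (edgeR adjusted p = 0.374). Lig1, a DNA ligase, had 42 and 39.6 CPM with liproxstatin and 48.3 and 45.1 CPM in control (edgeR adjusted p = 0.431), apart between groups but not past the test. Ccne1, the other cyclin of S-phase entry, Uhrf1 and Hells, which serve DNA methylation, Cdc6, which loads the helicase, and Ung, which removes uracil, did not pass either.

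**Figure D3:**
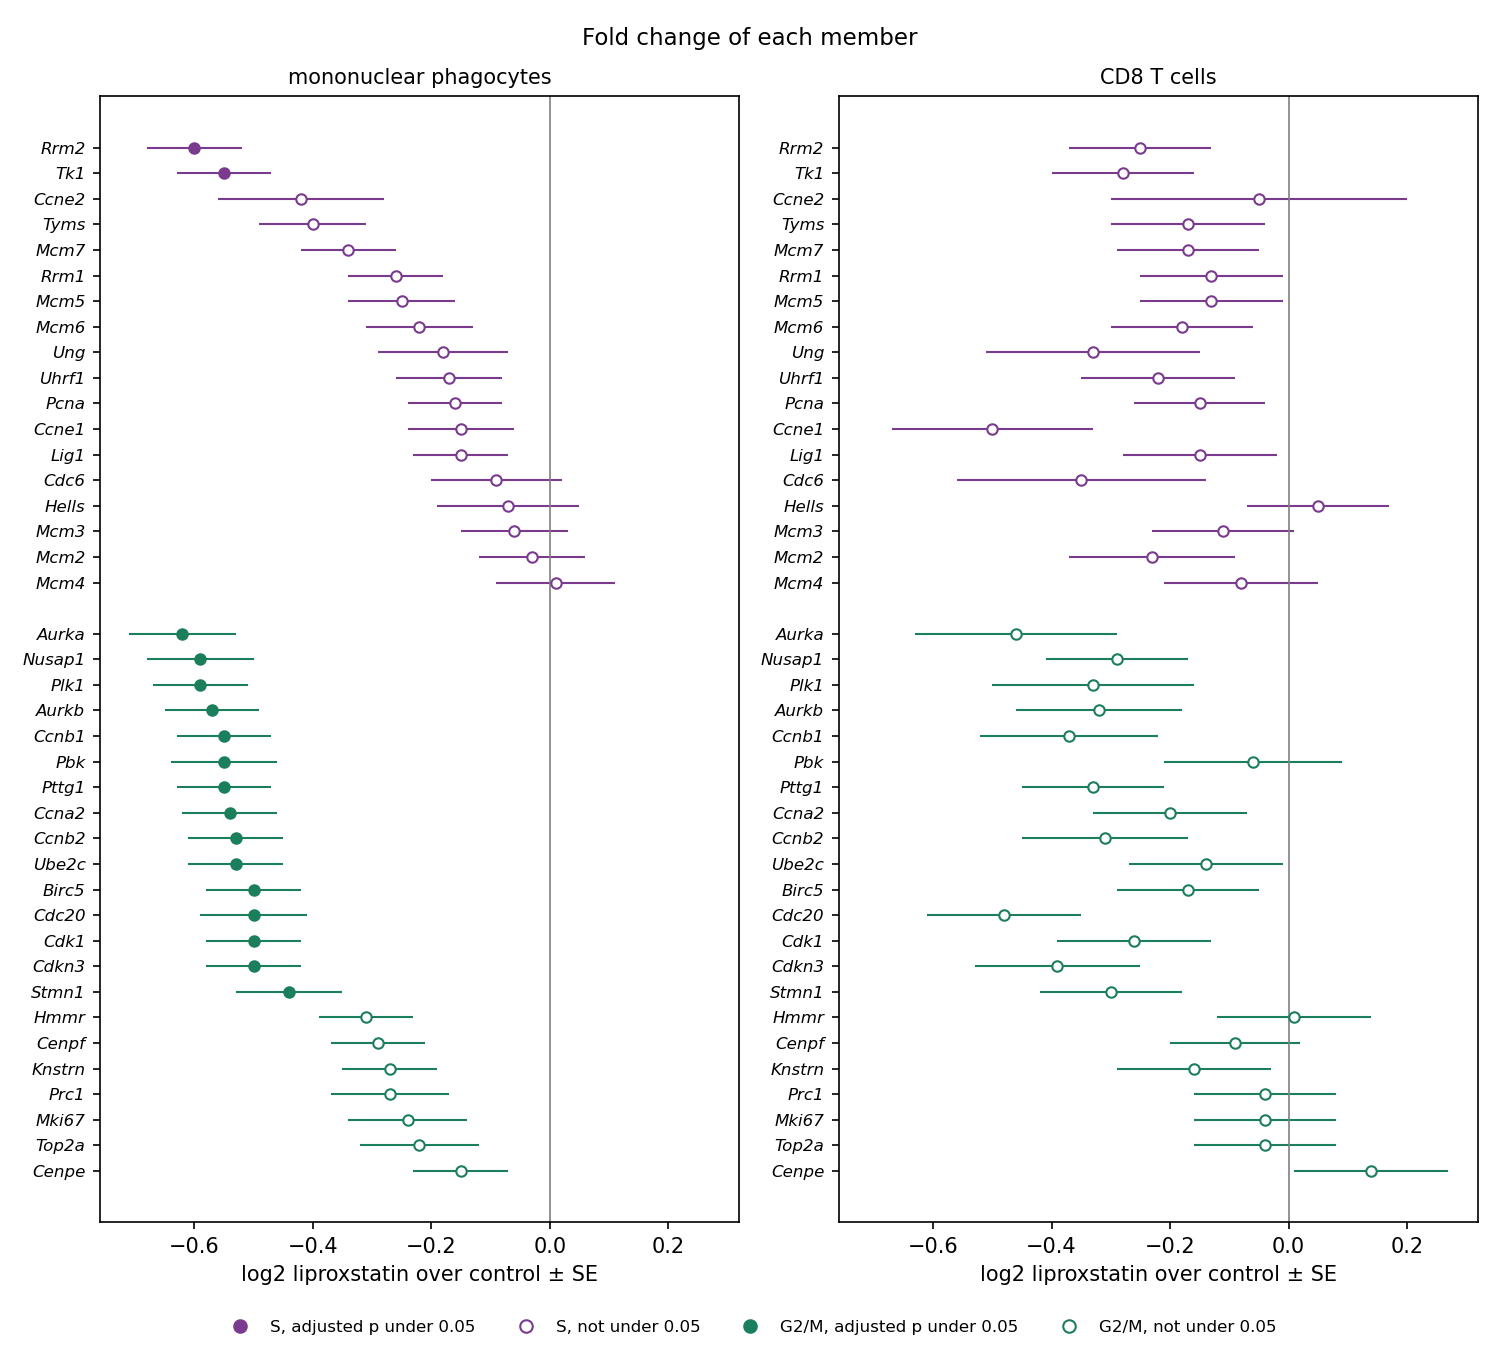
Log2 fold change, liproxstatin over control, with its SE for each member in mononuclear phagocytes (left) and CD8 T cells (right), ordered by the phagocyte value within each phase. Filled points (adjusted p under 0.05) occur only in phagocytes, 15 in G2/M and 2 in S.

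The difference also showed in how many phagocytes carried many member UMIs. Cells were thinned to 3000 UMIs each and called marked with at least 4 S or 4 G2/M member UMIs. Marked cells were 20.5% and 19.5% of phagocytes with liproxstatin, against 27.5% and 27.2% in control. Marking by G2/M gave 14.5% and 13.8% with liproxstatin and 20.6% and 21.7% in control, and marking by S gave 11.9% and 11.4% with liproxstatin and 15.5% and 14.6% in control. Cells marked by S alone were 5.97% and 5.7% with liproxstatin and 6.9% and 5.49% in control, which overlap. Each exact permutation p was 0.33 where groups did not overlap. In neutrophils at most 1.38% of cells were marked, and in monocytes at most 0.495%. Thinning left out 261 and 87 phagocytes with liproxstatin and 340 and 193 in control.

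Among marked phagocytes, the G2/M UMIs per cell were 10 and 9.74 of 3000 with liproxstatin, against 10.2 and 11.4 in control. Marking used the same UMIs, so values within marked cells are a description only. Of the 22 G2/M members 10 were lower in both liproxstatin libraries there, 1 (Cenpe) was higher and 11 overlapped. Of the 18 S members 4 were lower, 5 higher and 9 overlapped. The share over all genes was not computed within marked cells, so these counts have no background beside them. The largest relative G2/M differences were in Aurkb and Plk1: Aurkb had 176 and 187 UMIs per 1000 cells with liproxstatin and 251 and 256 in control, and Plk1 134 and 137 with liproxstatin and 159 and 203 in control. Mcm2 and Mcm4 went the other way, with 187 and 192 (Mcm2) and 214 and 178 (Mcm4) under liproxstatin, against 148 and 132 (Mcm2) and 140 and 119 (Mcm4) in control. Unmarked phagocytes carried 0.435 and 0.451 G2/M UMIs per cell with liproxstatin and 0.648 and 0.628 in control. Unmarked neutrophils had 0.299 and 0.273 with liproxstatin and 0.52 and 0.411 in control. In unmarked phagocytes 15 of the 22 G2/M members were lower in both liproxstatin libraries and 7 overlapped. Of the 18 S members 10 were lower there, 1 (Ccne2) higher and 7 overlapped. These counts, too, have no share over all genes beside them. Scrublet scores called 17.1% and 16.6% of marked phagocytes doublets with liproxstatin, and 8.72% and 15.3% in control. Those cells are left out above, and with them kept the share differed by -7.54 percentage points in place of -7.37.

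**Figure D4:**
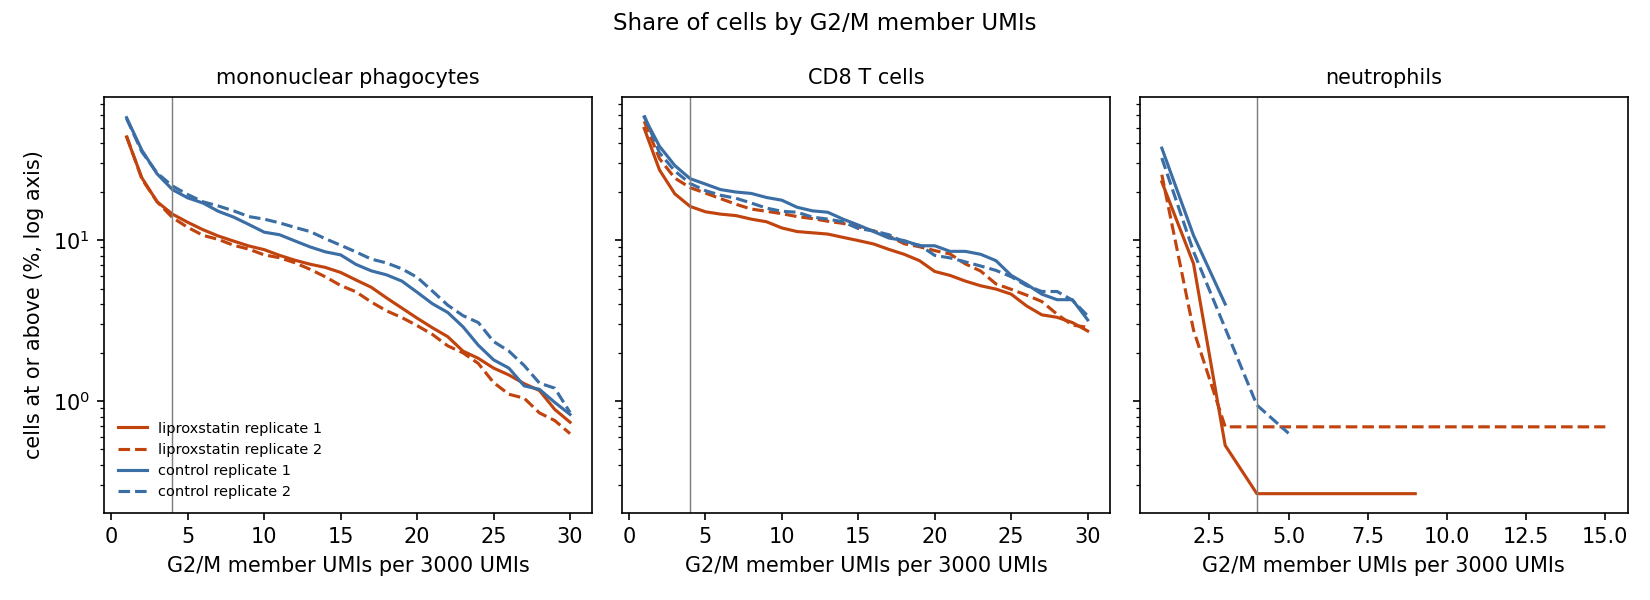
Percentage of cells (log axis) with at least the given number of G2/M member UMIs per 3000 UMIs, by library, in phagocytes, CD8 T cells and neutrophils; the grey line is at 4. In phagocytes both liproxstatin lines run below both control lines at 4 UMIs, while the neutrophil lines fall to 0.943% or less there.

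The mix of phagocytes differed between groups along with these levels. Clusters were made without the listed cell cycle genes, and one of 9 phagocyte clusters, led by Hist1h1b, Hist1h2ap, Prc1 and Nusap1, was still 99.4% to 99.7% marked cells. It held 9.66% and 8.57% of phagocytes with liproxstatin and 11.7% and 14% in control. A nearly unmarked cluster led by Cxcl3 and Inhba held 21.9% and 18.9% with liproxstatin and 15.8% and 13.4% in control. A cluster led by Lyve1 and Ednrb held 6.61% and 6.58% with liproxstatin and 10% and 10.5% in control, and 11.9% and 14.8% of its cells were marked with liproxstatin against 23.6% and 17.5% in control. Within these first clusters the marked share was lower in both liproxstatin libraries than in both control libraries in 2 of 9, the Lyve1 and Cxcl3 clusters, and higher in 1. That 1, led by Mmp12 and Arg1, had 9.72% and 8.05% marked with liproxstatin and 6.15% and 7.84% in control. When 1 random draw took equal numbers of each cluster from every library, 1928 cells per library, 0 of 40 members passed. Calls over all genes fell too, from 1.86% to 0.462%. The G2/M sum in this draw was 1328 and 1385 CPM with liproxstatin and 1528 and 1420 CPM in control. Because one of these clusters is made of dividing cells, the draw also equalises their share by construction. After that result was seen, clusters were made again without 151 further genes that correlate with the members. Within the new clusters the marked share was lower in both liproxstatin libraries than in both control libraries in 5 of 9, and higher in 0. In 1 random draw, equal numbers of those clusters left 8 G2/M and 0 S members lower, while 1.04% of all genes were called. The G2/M sums were then 1067 and 1188 CPM with liproxstatin and 1532 and 1426 CPM in control. An earlier draw from these clusters had called more G2/M members, so this count also varies with the cells drawn. The calls therefore changed with the cells drawn. Whether the smaller number of cells or the evened mix of clusters lowered them was not tested.

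**Figure D5:**
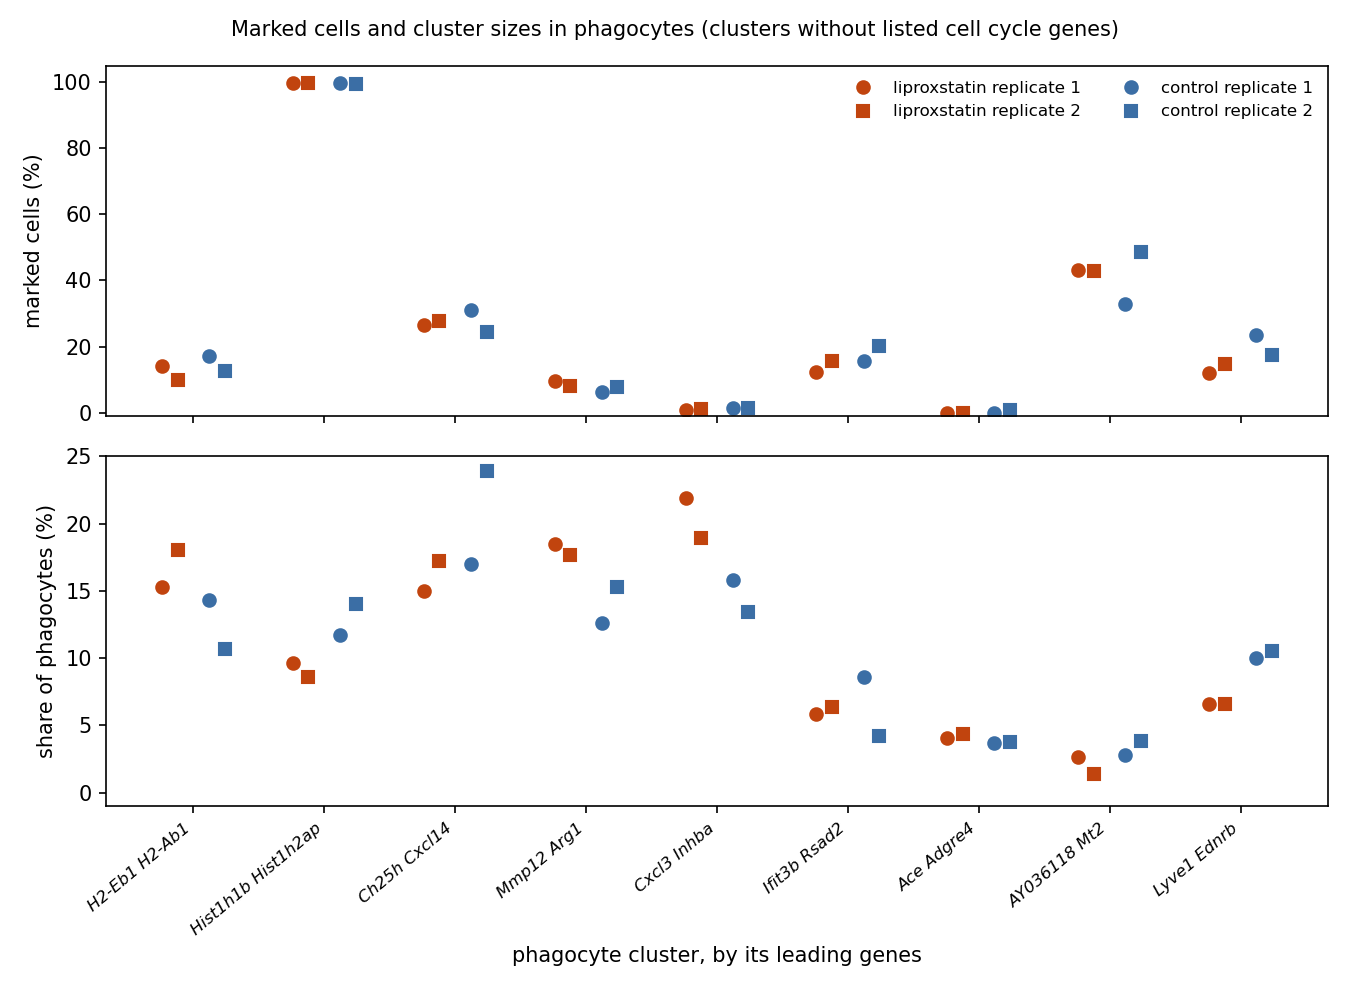
Marked cells (top, % of the cluster) and cluster size (bottom, % of phagocytes) by library for 9 phagocyte clusters made without the listed cell cycle genes, named by leading genes. The Hist1h1b cluster is nearly all marked in every library and smaller in both liproxstatin libraries.

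In CD8 T cells no member passed the test, though most leaned lower. The summed G2/M level differed by -0.19 and the S level by -0.17 on the log2 scale, and neither overlapped between groups (exact permutation p = 0.33), but with classes by cluster the G2/M sums did. Of the members, 0 of 40 were called by edgeR and by DESeq2, against 1.14% of the 11628 genes tested by edgeR. An unadjusted edgeR p under 0.05 was found for 13 members and for 1253 of all genes tested. The groups did not overlap for 14 of 22 G2/M and 12 of 18 S members, always lower with liproxstatin, a direction that held for 22.2% of all genes. Cdc20, an activator of the anaphase-promoting complex, had the lowest p. It had 30.7 and 36.7 CPM with liproxstatin and 48.4 and 46.5 CPM in control (log2 -0.48 ± 0.13, edgeR adjusted p = 0.0701). A call among the S members appeared without control replicate 1, but calls over all genes rose steeply as well. Mki67 had 198 and 201 CPM with liproxstatin and 232 and 180 CPM in control, and Stmn1 391 and 471 CPM with liproxstatin and 548 and 519 CPM in control. Marked cells were 23.9% and 29.2% of CD8 T cells with liproxstatin and 30.1% and 31.4% in control.

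The response of phagocytes and of CD8 T cells was compared directly, with the library as a block. No member differed (edgeR adjusted p, lowest 0.147 for Ube2c), and 0.458% of 14419 genes were called. An unadjusted edgeR p under 0.05 was found for 11 of 40 members and for 1149 of all genes tested. All 22 G2/M members had a lower value in phagocytes than in CD8 T cells, by a median of -0.24 log2, and 10 of 18 S members did, by a median of -0.04. Without control replicate 1 some members differed, but calls over all genes rose steeply as well.

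In the 8 other classes tested besides macrophages, 0 members were called by edgeR or DESeq2. In macrophages alone 17 were, 15 G2/M and 2 S, against 2.04% of genes. Those member calls were lost without either liproxstatin library, when calls over all macrophage genes fell steeply as well. Leaving out 1 library gave some member calls in the 8 other classes, the most without liproxstatin replicate 2. Calls over all genes then also rose in several of these classes, such as conventional CD4 T cells and mast cells or basophils. Of all genes, edgeR called 0.0778% in monocytes, 0.317% in regulatory T cells, 0.0177% in conventional CD4 T cells and 0.0104% in NK cells. It called 0.165% in dendritic cells, 0.201% in plasmacytoid dendritic cells, 0.501% in mast cells or basophils and 0% in neutrophils. Members with an unadjusted edgeR p under 0.05 numbered between 0 of 7 tested in plasmacytoid dendritic cells and 6 of 32 in monocytes. Among all genes, 510 of 7479 had such a p in plasmacytoid dendritic cells and 810 of 10279 in monocytes. Regulatory T cells had G2/M sums of 1256 and 1632 CPM with liproxstatin and 1798 and 1968 CPM in control, and 22 members tested with a median of -0.42. That difference depended on how the class was drawn: with classes by cluster the sums were 1094 and 1315 CPM with liproxstatin and 987 and 1597 CPM in control, which overlap. With clusters also made without correlated genes they were 1256 and 1424 CPM with liproxstatin and 982 and 1567 CPM in control, a log2 difference of 0.11. NK cells had 1043 and 1580 CPM with liproxstatin and 1617 and 1083 CPM in control, which overlap, and dendritic cells 1108 and 1038 CPM with liproxstatin and 908 and 1190 CPM in control. Members passing the count filter ranged from 7 of 40 in plasmacytoid dendritic cells to 40 of 40 in NK and dendritic cells.

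Other genes of the cell cycle moved unevenly in phagocytes. Over all genes tested there, 0.811% were called lower and 1.05% higher. Of 46 further mitosis genes 19 fell and none rose, among them Kif22, a chromosome-arm motor (-0.60 ± 0.09, edgeR adjusted p = 0.0148), Cdca3, Sgo1, a protector of centromere cohesion, and Ndc80, a kinetochore subunit. Of 35 further replication genes 2 fell, Chaf1b, of a histone chaperone, and Gins1, of the helicase. Of the G1 cyclins and cyclin-dependent kinases 0 of 8 tested were called. Ccnd1 had most UMIs of them. Among 7 inhibitors of cyclin-dependent kinases, Cdkn2c fell and Cdkn1a and Cdkn1b rose. Cdkn1a, or p21, had 288 and 277 CPM with liproxstatin and 227 and 215 CPM in control (0.40 ± 0.09, edgeR adjusted p = 0.0466), and Cdkn1b, or p27, had 51.8 and 49.6 CPM with liproxstatin and 41.6 and 37.8 CPM in control. Of 20 pocket protein, E2F and MuvB genes, Foxm1 fell, with 8.18 and 8.01 CPM under liproxstatin and 10.9 and 11.6 CPM in control. In macrophages alone Cdkn2c was still called, but Cdkn1a (0.35 ± 0.08, edgeR adjusted p = 0.0534), Cdkn1b (adjusted p = 0.0537, edgeR) and Foxm1 (adjusted p = 0.0542, edgeR) were not. In CD8 T cells the same lists, of 117 genes, gave 1 call, which is near the 1.14% called over all genes there. It was Cdkn2d, with 44.7 and 52.1 CPM under liproxstatin and 65.2 and 72.7 CPM in control.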

How the data were processed

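Counts were deposited by the authors as 1 matrix of whole UMI counts per library, not normalized. Cell Ranger is given as 6.1.1 per the file headers but as 4, with build mm10, per the submitters' processing notes. Cells with at least 200 genes and under 15% mitochondrial UMIs were kept, and the highest Scrublet scores (scanpy 1.11.5; 0.8% per 1000 barcodes) were left out as doublets. Scrublet's own threshold would have called 1 to 208 cells per library.

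Each cell took the class with the highest mean capped marker score, at least 0.3 and 0.1 above the next. This gate, its thresholds, the 3000 UMIs for thinning and the 4 UMIs that mark a cell were set after looking at the data; an earlier standardised score was dropped for misplacing cells. Members and gene lists were chosen with earlier results of these data known. Clustering (Leiden, python-igraph 0.11.9, resolution 1) first left out the listed cell cycle genes. A version without 151 genes correlated above 0.15 with the members was added after the first result was seen.

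Counts were summed per library and class (at least 20 cells per library) and fitted with edgeR 4.0.16 in R 4.3.3: filterByExpr, TMM, quasi-likelihood F test, Benjamini-Hochberg adjustment over the class, threshold 0.05. The fit was tested on simulated data. DESeq2 1.42.0 was an alternative. SE is the log2 fold change over the square root of F. Single values used exact two-sided permutation tests. Genes with values per library were the members past the threshold in phagocytes or CD8 T cells and the 5 with most UMIs per phase, plus at most 4 called genes per further list; Cenpe, the promoters shown and values in marked cells were also chosen for illustration after their values were seen. Positions are from GENCODE M21, GRCm38.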

Additional observations from a re-analysis of the deposited data

Results flagged for a closer look

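Cenpa, the centromeric histone H3 variant and a mitosis gene outside the 40, fell more in phagocytes than in CD8 T cells: its response differed by -0.53 ± 0.11 (SE) on the log2 scale, with an adjusted p of 0.0431 by the edgeR interaction term, so the difference itself was tested. Over the alternatives its adjusted p ran from 9.89e-11 to 0.564, the highest without the library block, and it was 0.303 without liproxstatin replicate 2. Of 14419 genes 66 differed in this way.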

How the results depend on the processing

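Leaving out 1 library gave 10 to 18 members called in phagocytes (17 with all libraries), 8 to 15 G2/M and 2 to 3 S members, with 8 G2/M members and 10 in all without liproxstatin replicate 1. In macrophages alone it gave 0 to 17, with 0 without either liproxstatin library. It gave 0 to 1 members in CD8 T cells, 1 to 11 in the 8 other classes and 0 to 5 for the difference in response. Genes called were 95 to 857 in phagocytes (273 with all), 5 to 453 in CD8 T cells (132) and 15 to 411 for the difference (66). Summed levels in phagocytes ran from -0.50 to -0.43 (G2/M) and -0.33 to -0.22 (S), and in CD8 T cells from -0.27 to -0.11 and -0.24 to -0.10. Marked phagocytes ran from -7.85 to -6.85 points, by G2/M -7.55 to -6.45 and by S -3.85 to -2.95; marked CD8 T cells from -6.85 to -1.55, by G2/M -7.10 to -2.10 and by S -6.15 to -1.95.

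DESeq2 called 4 S members in phagocytes, 567 genes there and 75 in CD8 T cells. No filter gave 5 S members, 1 member in CD8 T cells, 6 in the other classes, 1 for the difference, and 1165, 406 and 279 genes. The labels do not pair replicate numbers (correlation of same-numbered deviations 0.105 in phagocytes, 0.083 in CD8 T cells); the replicate block gave 4 S members, 1 member in CD8 T cells, 2 in the other classes, and 606 and 420 genes. Without the library block 3 genes differed between classes. Keeping doublets gave 1 member in the other classes and a phagocyte G2/M level of -0.42. Thinning gave -0.55, with 179 genes in phagocytes and 79 in CD8 T cells. Marking by 3 or 6 UMIs gave -9.08 or -6.57 points in phagocytes, -8.65 or -6.00 by G2/M and -4.89 or -2.34 by S, and 3 UMIs gave -7.31 in CD8 T cells. Classes by cluster gave an S level of -0.09 in CD8 T cells under both clusterings. Summed levels of smaller classes changed sign more often: regulatory T cell S from -0.10 to 0.13 and 0.26 by the clusterings and 0.06 with doublets kept, and G2/M from -0.39 to 0.11 (-0.07 by the planned clusters); NK S from 0.12 to -0.10 and -0.02 by the clusterings; and, thinned, monocyte S from -0.23 to 0.06, NK S to -0.07 and dendritic G2/M from 0.05 to -0.22.

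Added after seeing the data: equal cells per cluster gave 0 members, 0 G2/M, 0 S and 63 genes, levels of -0.12 (G2/M) and -0.04 (S), and shares of -1.71, -2.33 (G2/M) and 0.47 (S), a reversed sign. Without correlated genes it gave 8 members, 8 G2/M, 0 S and 141 genes, levels of -0.39 and -0.15, and shares of -3.85, -4.06 and -1.07. The cause was not tested. With 2 libraries per group, and 94 neutrophils in control replicate 1, small differences could not be seen.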
